A study of Mus musculus with 4 samples.

Results

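The 10 genes described here, of 32285 in the count matrix, encode the GATA factors and the factors that act with them in megakaryocyte and erythroid development: Gata1, Gata2, Gata3, Tal1, Zfpm1, Klf1, Fli1, Nfe2, Gfi1b and Gfi1. The members were chosen by symbol, and each symbol occurred once in the matrix. Single-cell RNA sequencing had been done on donor hematopoietic stem and progenitor cells, the CD45.2 cells that remain recognisable in a recipient after competitive transplantation. By the labels, donor marrow was heterozygous mutant for Srcap, a chromatin remodeller gene, in 2 samples and wild type in 2, all C57BL/6 bone marrow taken 20 weeks after transplantation, with 20000 sorted cells per sample. They do not say what the Srcap change is or whether marrow of several recipients was pooled. Barcodes carry a suffix from 1 to 4 that separates 4 libraries, and the labels used here do not say which sample each suffix stands for. Mutant and wild-type cells could therefore not be compared, and every value is given per library, with no test between genotypes.

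GATA1 and GATA2 are zinc finger factors that bind GATA sequences. GATA2 acts in stem cells, early progenitors and mast cells, and GATA1 takes its place at many sites as erythroid cells and megakaryocytes form. TAL1 joins them on DNA in a complex with LMO2 and LDB1, and FOG1, the product of Zfpm1, is a cofactor of GATA1. KLF1 drives erythroid genes and FLI1 megakaryocyte genes, and each opposes the other. NFE2 is needed to make platelets, GFI1B and GFI1 are related repressor proteins, the one of erythroid cells and megakaryocytes and the other of neutrophil and lymphoid cells, and GATA3 is best known from T cells and innate lymphoid cells.

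Gene positions are given on GRCm38 with the GENCODE M21 annotation. Gata1 lies on chromosome X at 7959260 to 7978071, Gata2 on chromosome 6 at 88193891 to 88207032 and Gata3 on chromosome 2 at 9857078 to 9890034. Klf1 and Zfpm1 lie on chromosome 8, at 84901928 to 84905291 and 122282141 to 122337251. Tal1 lies on chromosome 4 at 115056426 to 115071755, Fli1 on chromosome 9 at 32422204 to 32542861 and Nfe2 on chromosome 15 at 103248212 to 103258403. Gfi1b lies on chromosome 2 at 28609450 to 28621982 and Gfi1 on chromosome 5 at 107716657 to 107726036. Gata3, Gfi1, Fli1 and Zfpm1 overlap other gene models, on the same strand in the case of Gata3, Fli1 and Zfpm1, so that the assignment of their reads is less certain.

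Promoter windows of 4 genes are shown because of the cells in which the levels of their genes were highest in the results. These were erythroid cells for Klf1, Gfi1b and Gata1 and neutrophil progenitors for Gfi1, with megakaryocytes next by median for Gfi1b and Gata1. The range of Gata1 in basophil or mast cells overlapped that in megakaryocytes. The windows are RefSeq sequences of GRCm38.p6 that run from 250 bases before to 50 bases after a gene's RefSeq start, written 5′ to 3′ on the gene's strand, and capitals mark GATAA or its reverse complement TTATC. The Klf1 window lies at chr8:84901732-84902031 on the forward strand. The others lie on the reverse strand, at chr2:28621933-28622232 for Gfi1b, chrX:7967861-7968160 for Gata1 and chr5:107725756-107726055 for Gfi1. The Gata1 window lies within the span that the gene annotation gives this gene (chrX:7959260-7978071), so its outermost start was not analysed here.
Klf1: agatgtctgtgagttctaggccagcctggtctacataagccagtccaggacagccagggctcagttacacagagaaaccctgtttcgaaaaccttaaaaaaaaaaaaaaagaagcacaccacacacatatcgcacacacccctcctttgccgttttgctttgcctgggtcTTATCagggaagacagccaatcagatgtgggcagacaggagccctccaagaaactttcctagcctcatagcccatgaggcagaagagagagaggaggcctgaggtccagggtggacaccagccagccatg
Gfi1b: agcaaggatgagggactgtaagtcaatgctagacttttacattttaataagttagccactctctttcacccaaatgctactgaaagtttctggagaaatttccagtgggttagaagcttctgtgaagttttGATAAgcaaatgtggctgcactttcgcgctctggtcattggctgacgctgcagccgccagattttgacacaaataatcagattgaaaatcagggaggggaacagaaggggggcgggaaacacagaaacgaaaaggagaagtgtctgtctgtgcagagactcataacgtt
Gata1: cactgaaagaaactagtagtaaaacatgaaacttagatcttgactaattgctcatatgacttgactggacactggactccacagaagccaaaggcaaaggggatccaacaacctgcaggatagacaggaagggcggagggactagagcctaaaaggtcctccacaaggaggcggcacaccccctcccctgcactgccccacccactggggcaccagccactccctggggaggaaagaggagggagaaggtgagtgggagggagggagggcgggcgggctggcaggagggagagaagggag
Gfi1: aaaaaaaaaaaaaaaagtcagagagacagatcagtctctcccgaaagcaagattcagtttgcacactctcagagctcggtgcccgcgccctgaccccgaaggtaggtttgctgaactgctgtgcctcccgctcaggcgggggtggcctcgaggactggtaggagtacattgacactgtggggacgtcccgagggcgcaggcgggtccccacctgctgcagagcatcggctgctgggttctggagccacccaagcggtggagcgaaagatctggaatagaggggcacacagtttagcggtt
The search for GATAA on both strands matched 80 bases before the start of Klf1 and 119 bases before that of Gfi1b, and neither the Gata1 nor the Gfi1 window shown. Tal1 had a match 205 bases before the start in 1 of its 2 windows. Windows of 8 of the 10 genes were found, and 25.4% of all 32851 promoter windows hold the motif, so that a match is common. The E-box CANNTG, which TAL1 and its partners bind, stands in 72.3% of all windows, the KLF-type motif CCNCNCCC in 49.5%, the ETS-type motif CCGGAAG in 8.86% and the NFE2-type motif TGAGTCA in 5.2%.

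Cells were sorted into classes by marker genes, none of which is a member. A cell entered a gate when it had a UMI, a unique molecular identifier that stands for a captured transcript, of at least 3 markers of that class and passed no other gate. The stem gate held 7539 of 41122 kept cells, the megakaryocyte gate 2855, the erythroid gate 402 and the basophil or mast gate 88. The lymphoid progenitor gate held 991, the B cell gate 468, the T, NK or innate lymphoid gate 197, the neutrophil progenitor gate 1613, the monocyte gate 512, the dendritic gate 127 and the macrophage gate 298. A further 6121 cells passed more than 1 gate. Of these, 1250 passed the stem and the megakaryocyte gate and no other and are described apart, and the rest were left out of the gates. The remaining 19911 cells passed none. Each gate had more markers of its own class than of others among the 10 genes with the highest fold, with Cox6a2 in the lymphoid progenitor gate the only foreign marker. These markers also set the gates, so their place there does not measure purity. Lymphoid progenitor markers summed to 1033 to 1866 CPM in the dendritic gate, against 866 to 1137 CPM for its own markers. In the B cell gate they summed to 1243 to 1621 CPM, against 1731 to 2434 CPM for its own markers. The T, NK or innate lymphoid gate was led by the NK genes Xcl1, Ncr1 and Klre1, and in the macrophage gate, where Gata2 stood at 83.8 to 112 CPM, the 7 stem markers summed to 119 to 152 CPM, with their part in that level not tested. Levels are given as CPM, the UMIs of a gene scaled to the UMI total of its gate in a library. Intervals are exact 95% Poisson or binomial intervals and cover counting error only. The 4 libraries held 9511 to 13301 barcodes and 112027160 to 144385614 UMIs, and 209 barcode sequences occurred in more than 1 library.

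**Figure D1:**
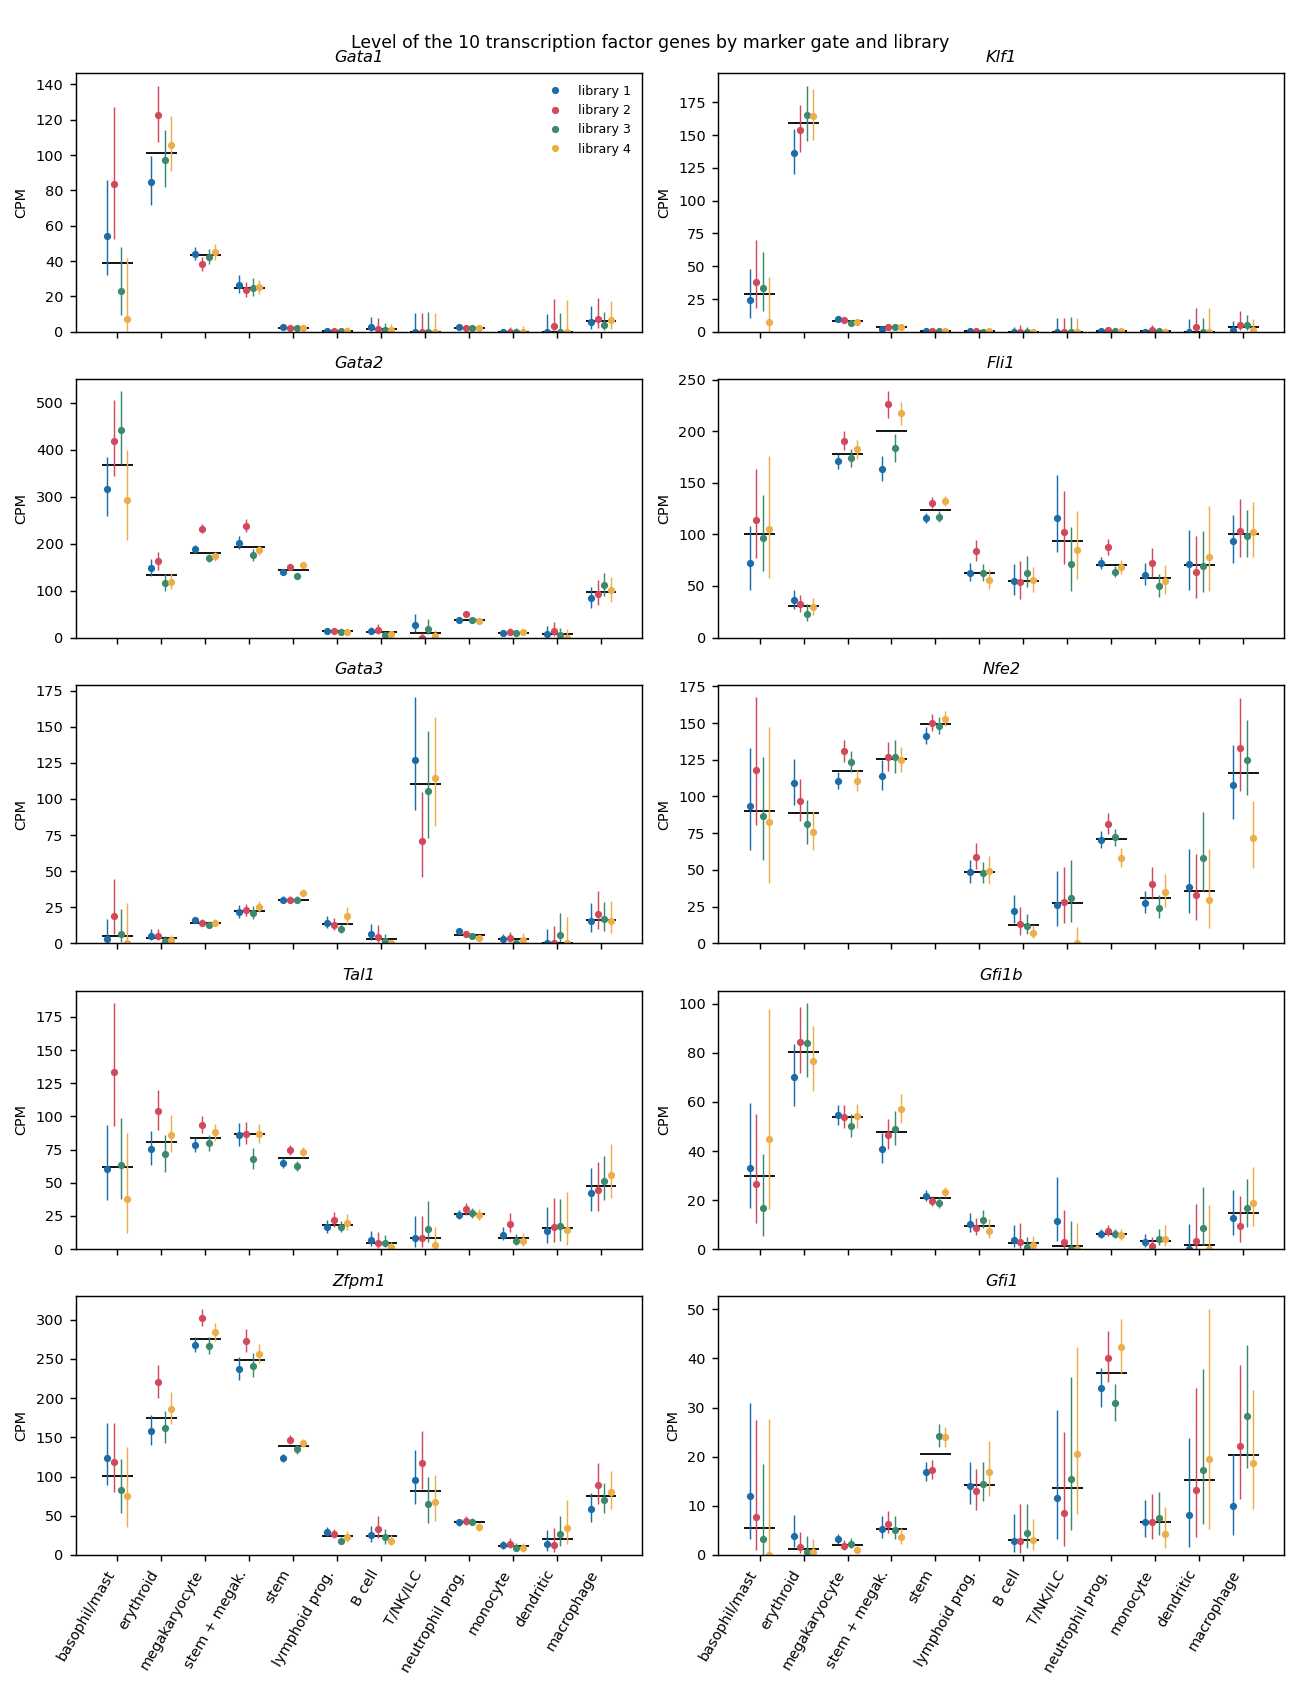
Level of each of the 10 genes in CPM by marker gate, with a point and exact 95% Poisson interval for each of the 4 libraries and a black line at their median. Klf1 stands at 137 to 166 in the erythroid gate and at or below 38.1 in every other gate, whereas Fli1 is lowest in the erythroid gate, at 23.1 to 36.0.

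Gata1 had its highest level in the erythroid gate and in stem cells stood near the level of neutrophil progenitors. It stood at 84.9, 123, 97.1 and 106 CPM in the erythroid gate of libraries 1 to 4, and at 44.2, 38.1, 42.4 and 45.0 CPM in the megakaryocyte gate. The stem gate held 2.93, 2.30, 2.12 and 2.20 CPM, a range that overlapped that of the neutrophil progenitor gate at 1.98 to 2.47 CPM. No Gata1 UMI was counted in the monocyte gate, where 3 UMIs would have given 1.42 to 2.53 CPM depending on the library. The basophil or mast gate scattered from 7.49 to 83.8 CPM on 1 to 22 UMIs per library, and its place in the order cannot be told from that of the megakaryocyte gate.

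Gata2 was highest in the basophil or mast gate, at 317, 419, 443 and 292 CPM, and all 4 values lay above the values of every other gate. The megakaryocyte gate followed at 189, 232, 169 and 173 CPM. The stem gate stood at 139, 151, 132 and 155 CPM and the erythroid gate at 148, 162, 117 and 119 CPM, and these 2 ranges overlapped. The neutrophil progenitor gate at 35.3 to 50.5 CPM and the lymphoid progenitor gate at 11.6 to 14.2 CPM lay below all of them, without overlap.

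Gata3 followed another order. It was highest in the T, NK or innate lymphoid gate, at 127, 71.1, 105 and 115 CPM, on 197 cells in all. The stem gate came next at 30.3, 30.1, 30.3 and 34.9 CPM, above the megakaryocyte gate at 12.9 to 16.0 CPM and the lymphoid progenitor gate at 9.92 to 18.7 CPM, which overlapped each other. The erythroid gate held 1.36 to 5.28 CPM. With the libraries summed, here and for the shares that follow, Gata3 made up 89.9% of the UMIs of the 3 GATA genes in the T, NK or innate lymphoid gate (95% interval 84.1 to 94.1%), 165 of 330 UMIs in the lymphoid progenitor gate (44.5 to 55.5%) and 17.7% in the stem gate (17.0 to 18.3%).

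Tal1 and Zfpm1, the GATA partners, were broad within the stem, megakaryocyte and erythroid gates. Tal1 stood at 78.4 to 93.9 CPM in the megakaryocyte gate, 71.3 to 104 CPM in the erythroid gate and 62.6 to 74.7 CPM in the stem gate, and the erythroid range overlapped both others. Zfpm1 was highest in the megakaryocyte gate, at 268, 303, 267 and 284 CPM, ahead of the erythroid gate at 159, 220.2, 162 and 187 CPM and the stem gate at 124, 147, 135 and 143 CPM. Its lowest median was that of the monocyte gate, at 8.45 to 14.1 CPM.

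Klf1 and Fli1, the opposed factors, had opposite extremes in the erythroid gate, but Klf1 was not lowest in the megakaryocyte gate, where Fli1 was highest. Klf1 stood at 137, 154, 166 and 165 CPM in the erythroid gate, at 24.2, 38.1, 33.3 and 7.49 CPM in the basophil or mast gate and at 10.0, 8.70, 6.93 and 7.69 CPM in the megakaryocyte gate. The stem gate held 0.648 to 0.955 CPM. Fli1 was highest among the 11 gates in the megakaryocyte gate, at 171, 191, 174 and 182 CPM, and lowest in the erythroid gate, at 36.0, 32.2, 23.1 and 29.5 CPM, below every library of every other gate. Klf1 made up 83.5% of the UMIs of the pair in the erythroid gate (81.4 to 85.5%), 23.0% in the basophil or mast gate (16.0 to 31.4%), 4.53% in the megakaryocyte gate (4.07 to 5.03%) and 0.671% in the stem gate (0.516 to 0.858%).

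Nfe2 was highest in the stem gate, at 141, 150.4, 148 and 153 CPM, above the megakaryocyte gate at 111, 131, 124 and 110.5 CPM without overlap. The erythroid gate stood at 75.7 to 109 CPM and the B cell gate had the lowest median, with 6.85 to 21.8 CPM.

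The GFI1 pair split by lineage. Gfi1b was highest in the erythroid gate, at 70.3, 84.5, 84.2 and 76.9 CPM, followed by the megakaryocyte gate at 54.7, 53.9, 50.1 and 54.1 CPM and the stem gate at 21.8, 19.6, 18.9 and 23.1 CPM. Gfi1 was highest in the neutrophil progenitor gate, at 34.0, 40.2, 30.9 and 42.3 CPM, and stood at 16.9, 17.3, 24.3 and 24.0 CPM in the stem gate. In the megakaryocyte and erythroid gates Gfi1 held 0.932 to 3.15 and 0.578 to 3.94 CPM. Gfi1b made up 97.8% of the UMIs of the pair in the erythroid gate (96.2 to 98.9%), 96.1% in the megakaryocyte gate (95.2 to 96.9%), 50.2% in the stem gate (48.5 to 52.0%) and 15.1% in the neutrophil progenitor gate (13.1 to 17.2%). A 3′ tag count carries no correction for how well each gene's end is captured, so these shares compare gates and do not give the ratio of the 2 transcripts.

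**Figure D2:**
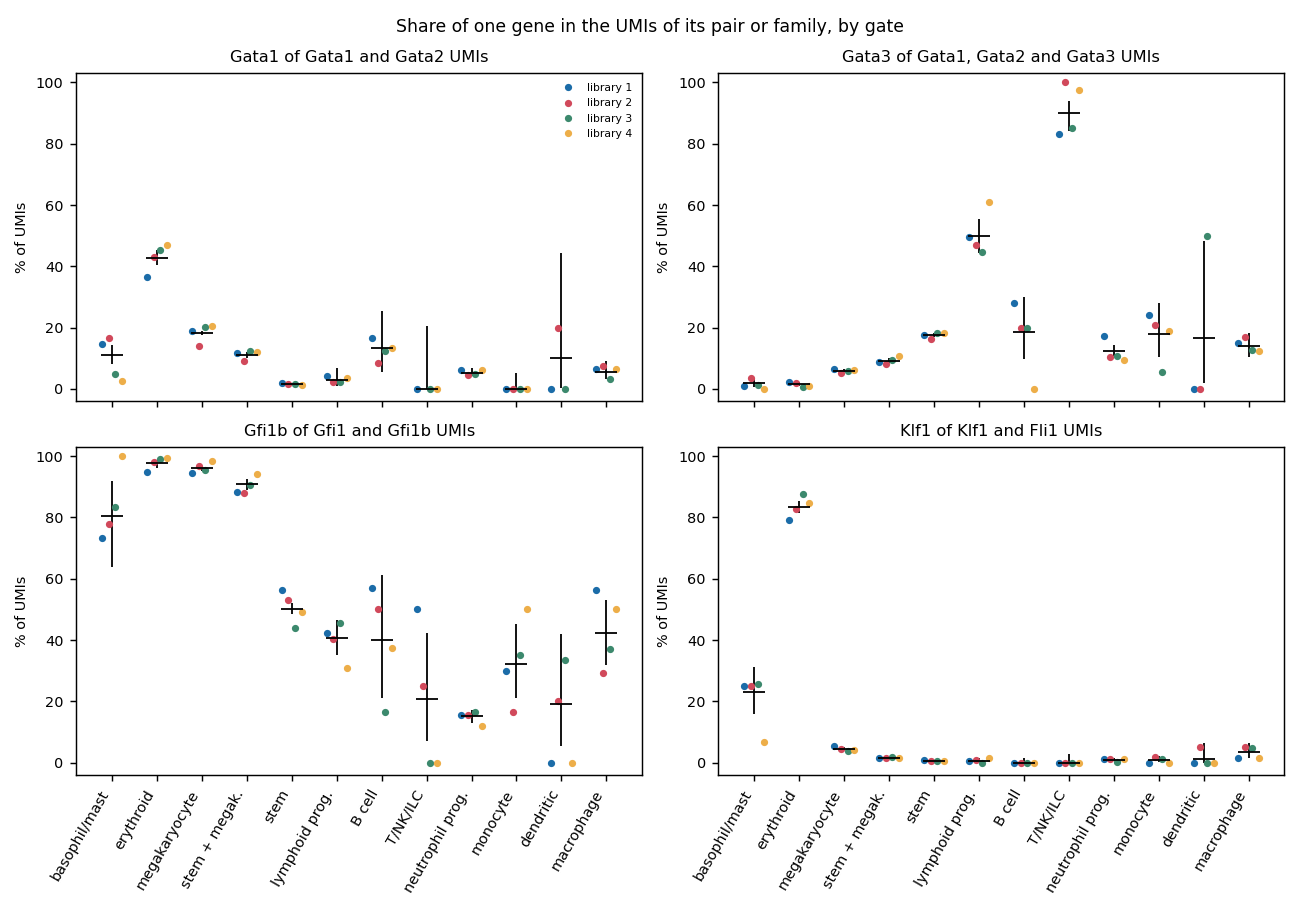
Share of the first-named gene in the summed UMIs of its pair or of the 3 GATA genes, in percent, by gate, with colored points for the 4 libraries and a black line with its exact 95% binomial interval for all libraries together. Gfi1b moves between 97.8% in the erythroid gate and 15.1% in the neutrophil progenitor gate, and Klf1 stands at 83.5% in the erythroid gate, 0.671% in the stem gate and 0% in the B cell gate and in the T, NK or innate lymphoid gate.

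The genes most like a member were ranked by Pearson's r of log2(CPM + 1) over the 11 gates, each the median of the libraries, among 7531 genes. This is a description of few points that share libraries. Mfsd2b (r = 0.992), Icam4 (0.961) and Mical3 (0.937) were most like Gata1, and all were highest in the erythroid gate. Sdsl (0.957), Pcdh7 (0.950) and Slc18a2 (0.947), a monoamine transporter of basophils and mast cells, were most like Gata2. Armcx5 (0.956), Nck1 (0.929) and Tmem126b (0.915) were most like Gata3. Sun2 (0.898), Tmem141 (0.857) and Slc28a2 (0.839) were most like Gfi1. Zg16 (0.949), Bcl2l13 (0.938) and Abcb4 (0.938) were most like Klf1, and Rab38 (0.978), Hint2 (0.977) and Stxbp5 (0.973) were most like Nfe2. Among the members, Tal1 and Nfe2 were the closest pair (0.954), followed by Gata1 and Klf1 (0.941), and Gata1 and Gfi1 ran most opposite (-0.62).

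Between the megakaryocyte and the stem gate, Gata1 and Gfi1b were higher and Gfi1 was lower in megakaryocyte cells. Genes were called when their ratio passed 2-fold with 1 sign throughout the 4 libraries, provided that the mean level of both gates reached 5 CPM. Such calls rest on size alone, and no test stands behind them. Of the 10 members 9 reached that level, with 2 higher and 1 lower, against 0.86% of 9886 genes higher and 3.28% lower. The median log2 ratio of (CPM + 1) was 3.68 for Gata1 (range over libraries 3.52 to 3.85), 1.32 for Gfi1b (1.19 to 1.41) and -2.80 for Gfi1 (-3.69 to -2.11). Zfpm1 lay at the threshold, with 1.01 (0.98 to 1.11), and Gata3 stood at -1.09 (-1.23 to -0.88), past 2-fold in 3 of 4 libraries and called without library 1. Fli1 at 0.55, Gata2 at 0.39, Tal1 at 0.30 and Nfe2 at -0.30 changed by less, each with the same sign in 4 of 4 libraries. Klf1 had 63 to 124 UMIs per library in the megakaryocyte gate and 11 to 20 in the stem gate. Its mean level of both gates did not pass the level filter of 5 CPM, and its ratio was 2.32 (2.21 to 2.50). The summed level of the 10 erythroid gate markers was 121 to 135 CPM in the megakaryocyte gate, with 2 markers at 0, and 70.0 to 89.3 CPM in the stem gate, with none at 0, and its part in these ratios was not tested. With every cell thinned to 3000 UMIs, Gfi1b was no longer called, and with a minimum of 20 CPM Gfi1 was not.

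Cells that passed both gates lay between the 2 for most members, while Gata2, Tal1 and Fli1 had their highest median of the 3 there. Gata1 stood at 2.12 to 2.93 CPM in the stem gate, 23.8 to 26.6 CPM in cells of both gates and 38.1 to 45.0 CPM in the megakaryocyte gate, with no overlap. Gata3 ran the other way, at 30.1 to 34.9, 20.9 to 25.2 and 12.9 to 16.0 CPM. Gfi1 stood at 16.9 to 24.3 CPM in the stem gate, 3.62 to 6.39 CPM in cells of both gates and 0.932 to 3.15 CPM in the megakaryocyte gate. Gfi1b in cells of both gates, at 40.7 to 57.2 CPM, already overlapped the megakaryocyte gate at 50.1 to 54.7 CPM. Fli1 had 164, 226, 184 and 217 CPM in cells of both gates, above the megakaryocyte gate in 3 of 4 libraries. The share of Gata1 in the UMIs of Gata1 and Gata2 was 1.61% in the stem gate (1.38 to 1.86%), 11.1% in cells of both gates (10.2 to 12.1%) and 18.2% in the megakaryocyte gate (17.5 to 19.0%). The median UMI count per cell was 7838 to 8720 in the stem gate, 14653 to 15403 in cells of both gates and 12563 to 14026 in the megakaryocyte gate, and doublets were not removed. With each cell thinned to 3000 UMIs, a Gata1 UMI was found in 0.419 to 0.627% of cells of the stem gate, 5.53 to 7.18% of cells of both gates, 11.8 to 12.2% of the megakaryocyte gate and 0% of the monocyte gate, whose median depth was 10706 UMIs. Without thinning, the shares were 1.72 to 2.22%, 24.3 to 29.0%, 35.2 to 41.7% and 0%.

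**Figure D3:**
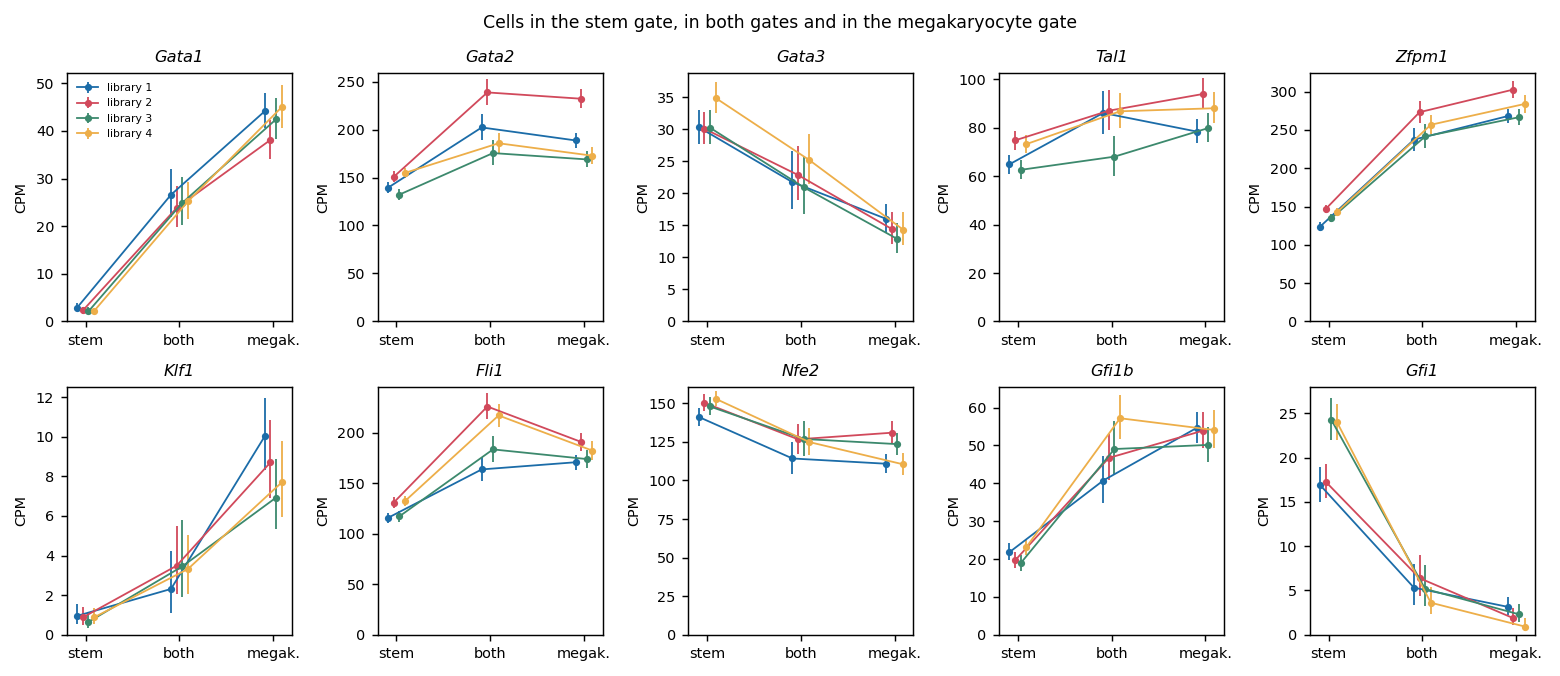
Level in CPM of the 10 genes in the stem gate, in cells of both gates and in the megakaryocyte gate, with a line and exact 95% Poisson intervals for each of the 4 libraries. Gata1 climbs in 4 of 4 libraries, at 23.8 to 26.6 in cells of both gates, while Gata3 and Gfi1 decline in 4 of 4.

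The gene lists around the members gave few calls in this comparison. None of the 11 complex partners of TAL1 and GATA (median log2 ratio -0.34) and none of the 11 corepressors of GFI1, GFI1B and FOG1 (0.08) was called, against a median of -0.03 over all genes. Of 13 megakaryocyte target genes 5 were higher, among them Serpine2 (3.87), Cavin2 (1.74), Plek (1.67), which encodes pleckstrin, and Cd9 (1.28). Of 14 erythroid targets 1 was higher and 1 lower, with a median of 0.17, and the lower one was Hbb-bt, an adult beta globin gene (-1.60). Of the 6 NFE2 partners and relatives Bach2 was lower (-1.42). None of the 14 other erythroid and megakaryocyte regulators and 1 of 5 myeloid and lymphoid regulators was called, namely Satb1 (-1.70). Of 12 S phase genes Mcm2 was higher (1.23), and their median was 1.04. None of the 12 G2 and M phase genes was called, and their median was 0.69. Mki67, a proliferation gene, stood at 454 to 753 CPM in the megakaryocyte gate and 174 to 486 CPM in the stem gate. The part of cell cycling in the members' ratios of this comparison was not tested.

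Between the erythroid and the megakaryocyte gate, Klf1 was higher and Fli1 and Gata3 were lower in erythroid cells. Of 9 members that passed the level filter 1 was higher and 2 were lower, against 1.97% of 9317 genes higher and 5.43% lower. The log2 ratio was 4.13 for Klf1 (3.64 to 4.39), -2.56 for Fli1 (-2.86 to -2.22) and -1.85 for Gata3 (-2.56 to -1.30). Gata1 had a ratio of 1.20 (0.93 to 1.66) and missed the rule in library 1 alone, so that without library 1 it was called. Gfi1b stood at 0.57 (0.36 to 0.74), Zfpm1 at -0.66 (-0.75 to -0.46), Gata2 at -0.52 (-0.53 to -0.35), Nfe2 at -0.49 (-0.60 to -0.02) and Tal1 at -0.04 (-0.16 to 0.15). Gata3 had 2 to 10 UMIs per library in the erythroid gate, and the 2 UMIs of library 3 give 1.36 CPM with an interval of 0.164 to 4.91 CPM. Its call was lost with thinned cells, with a pseudocount of 5 CPM, without the 8% of cells with the most UMIs and with a minimum of 20 CPM.

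Around them, 6 of 16 erythroid targets were higher, among them the membrane skeleton genes Add2 (4.74) and Ank1 (4.19), the transferrin receptor gene Tfrc (2.89) and the alpha globin gene Hba-a1 (6.18, with a range of 2.14 to 8.71). Of 13 megakaryocyte targets 9 were lower, among them Serpine2 (-4.53), Cavin2 (-4.47) and Plek (-3.73). The list medians were 1.60 and -3.10, against -0.12 over all genes. Of 14 other erythroid and megakaryocyte regulators 4 were higher and 5 lower, with Nfia at 1.90, and Mecom at -2.37, Meis1 at -2.35 and Mef2c at -2.19. Mecom is a stem gate marker, and cells that passed the stem gate are in neither of these gates. None of the 11 TAL1 and GATA complex partners, 11 corepressors and 6 NFE2 partners was called, nor any of 4 myeloid and lymphoid regulators, 12 S phase genes or 12 G2 and M phase genes.

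Between the basophil or mast and the erythroid gate, Gata2 was higher and Klf1 was lower in basophil or mast cells. Of 9 members 1 was higher and 1 lower, against 4.57% of 9331 genes higher and 1.37% lower, and a single member in each direction is too few to read against this background. The gate held 25, 26, 25 and 12 cells in libraries 1 to 4. The log2 ratio was 1.33 for Gata2 (1.10 to 1.91) and -2.37 for Klf1 (-4.29 to -1.99). Fli1 at 1.80 (0.99 to 2.02) missed the rule in library 1, and Gfi1b at -1.34 (-2.27 to -0.76) missed it in library 4; each was called without that library. Gata1 had a ratio of -1.32 with a range of -3.65 to -0.54. In library 4, Gata1 and Klf1 had 1 UMI each in the basophil or mast gate, or 7.49 CPM with an interval of 0.190 to 41.8 CPM. The summed level of the 9 neutrophil progenitor markers was 408 to 822 CPM in the basophil or mast gate, with 5 markers at 0, and 23.2 to 36.0 CPM in the erythroid gate, with 1 at 0, and its part in these ratios was not tested. The call of Gata2 was lost without the 8% of cells with the most UMIs, with thinned cells and with a gate of 2 markers.

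Among the lists, Runx1 (2.13) was higher of 11 TAL1 and GATA complex partners, and Satb1 (1.97) and Spi1 (2.33), which encodes PU.1, of 6 myeloid and lymphoid regulators. Of 15 other regulators 3 were higher and 2 lower, with Id2 at 5.30, Erg at 1.66, Klf3 at -1.74 and Nfia at -2.41. Of 9 megakaryocyte targets 3 were higher, among them Plek (2.91) and Cd9 (1.42). Of 16 erythroid targets 5 were lower, among them Tspan33 (-5.16), Add2 (-4.74), Ank1 (-4.42) and Tfrc (-2.28). The list medians were 1.98 for the myeloid and lymphoid regulators, 1.42 for the megakaryocyte targets and -2.16 for the erythroid targets, against 0.09 over all genes.

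Most members separated the erythroid from the neutrophil progenitor gate. Of 9 members 6 were higher in erythroid cells and 1 was lower, against 3.34% of 9166 genes higher and 5.76% lower. Klf1 had a log2 ratio of 6.36 (6.24 to 7.08), Gata1 5.01 (4.63 to 5.22), Gfi1b 3.44 (3.30 to 3.57), Zfpm1 2.11 (1.90 to 2.37), Gata2 1.70 (1.58 to 1.93) and Tal1 1.61 (1.36 to 1.77). Gfi1 had -4.12 (-4.78 to -2.83). Fli1 at -1.30 (-1.43 to -0.98) missed the rule in library 1 and was called without it, and Nfe2 stood at 0.31 (0.17 to 0.63). Klf1 had 2 to 7 UMIs per library in the neutrophil progenitor gate, so its ratio depends on the pseudocount; the 2 UMIs of library 3 give 0.233 CPM with an interval of 0.0282 to 0.842 CPM. Tal1 was no longer called without the 8% of cells with the most UMIs or with a gate of 2 markers, and Gfi1 with a minimum of 20 CPM.

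Of 16 erythroid targets 11 were higher, among them Hba-a1 (6.55), Tspan33 (4.82), Add2 (4.74) and Ank1 (4.42). The level of Hba-a1 in the erythroid gate ranged from 12.1 to 647 CPM between libraries. Of 6 myeloid and lymphoid regulators 5 were lower, among them Cebpa (-3.63), Satb1 (-3.23), Irf8 (-3.21) and Spi1 (-3.12). Ldb1, the bridging subunit of the TAL1 and GATA complex, was the member of its list of 11 that was called (1.51). Nfia (3.53), Klf3 (1.61) and Bcl11a (1.32) were higher and Id2 (-1.68) was lower among 15 other regulators, of which 3 were higher and 2 lower. Of 9 megakaryocyte targets F2r (2.17), which encodes a thrombin receptor, was higher and Serpine2 (-3.48) and Plek (-1.75) were lower. The median was 1.70 over the members, 2.19 over the erythroid targets and -3.16 over the myeloid and lymphoid regulators, against 0.03 over all genes.

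Between the lymphoid and the neutrophil progenitor gate, Gata2 and Gfi1 were lower in lymphoid progenitor cells. Of 8 members 0 were higher and 2 lower, against 3.24% of 9446 genes higher and 2.09% lower. The log2 ratio was -1.56 for Gata2 (-1.76 to -1.37) and -1.24 for Gfi1 (-1.57 to -1.04). Gata3 had 0.93 (0.71 to 2.02) and Gfi1b 0.50 (0.20 to 0.87), higher in 4 of 4 libraries without reaching the rule. With a gate of 2 markers neither Gata2 nor Gfi1 was called. Gata2 was also lost with a gate of 4 markers and with markers seen in at most 25% of cells, and Gfi1 with thinned cells, with a pseudocount of 5 CPM and without the 8% of cells with the most UMIs. Beside them Tcf4 (1.62) among 11 complex partners, Bach2 (1.85) among 6 NFE2 relatives, and Klf3 (2.19), Mef2c (1.67), Bcl11a (1.28) and Ikzf1 (1.28) among 14 other regulators were higher. Of 9 myeloid and lymphoid regulators 5 were higher and 2 lower, with Ebf1 at 4.79, Tcf7 at 4.50, Bcl11b at 3.84 and Satb1 at 2.13; Ebf1 and Tcf7 are gate markers of the B cell and the T, NK or innate lymphoid class. Of 9 megakaryocyte targets Selp (-2.45), the P-selectin gene, and Cd9 (-1.24) were lower. The members had a median of -0.50, against 0.06 over all genes. None of the 11 corepressors was called here or in any other of the 5 comparisons.

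**Figure D4:**
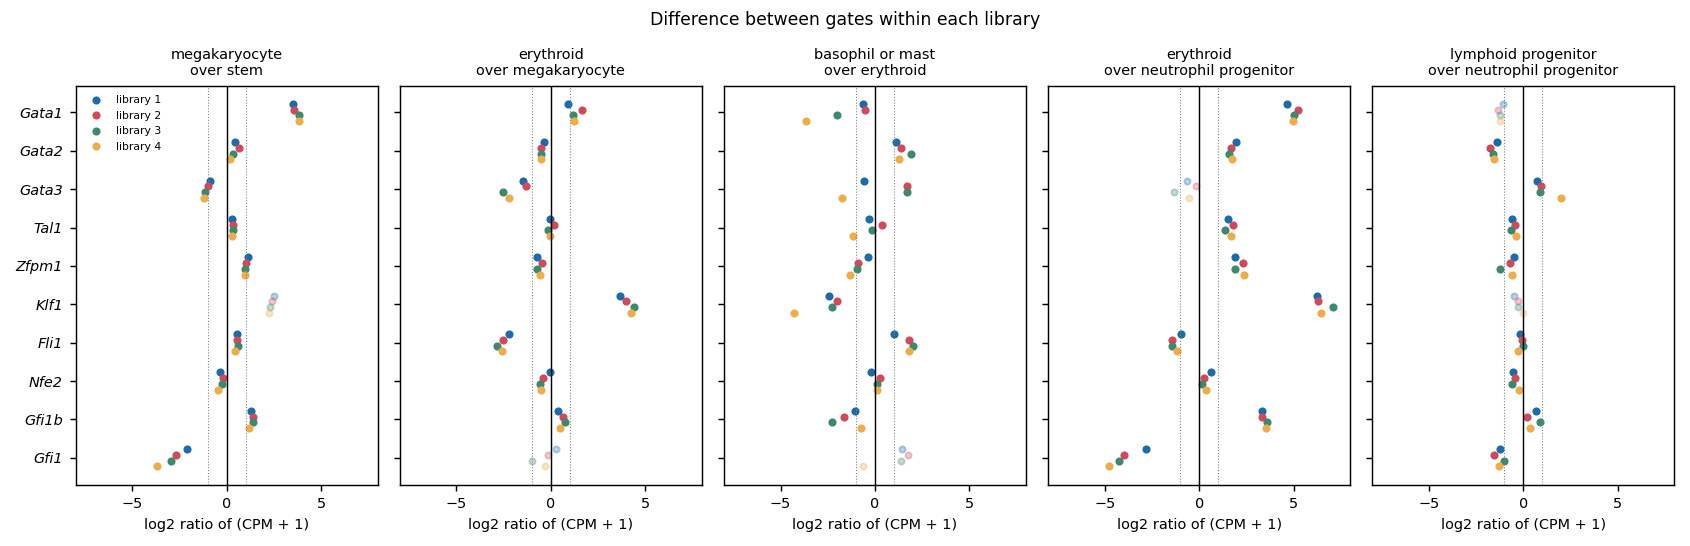
Log2 ratio of (CPM + 1) of the 10 genes between 2 gates within each of the 4 libraries, for the 5 comparisons, with dotted lines at 2-fold and pale points for genes below 5 CPM. Gata1 lies between 4.63 and 5.22 for erythroid over neutrophil progenitor cells, and Klf1 between 3.64 and 4.39 for erythroid over megakaryocyte cells.

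Within the erythroid gate, cells were ranked by Car1, an early erythroid carbonic anhydrase and a gate marker, and cut into 3 groups of equal size in each library. Among members that passed the level filter, Klf1 was higher and Fli1 was lower in the high than in the low Car1 group. The background was 0.288% of 9027 genes higher and 4.19% lower. Klf1 stood at 46.7, 94.3, 94.3 and 90.9 CPM in the low group, 128, 134, 166 and 195 CPM in the middle group and 191.5, 197, 195 and 191 CPM in the high group. Fli1 stood at 61.6 to 76.3, 9.51 to 33.4 and 13.7 to 19.5 CPM in the same order, so that it was already low in the middle group. Gata2 declined over the 3 groups in 4 of 4 libraries, at 154 to 258, 130.4 to 202 and 52.1 to 93.3 CPM, with ratios of high over low between -2.04 and -0.80; it missed the rule in library 4 and was called without it. Gata1 had no such order, at 49.0 to 102, 80.5 to 141 and 81.9 to 132 CPM, and its ratio was 0.38 (-0.03 to 1.12). Gfi1b stood at 0.69 (0.38 to 0.90), Tal1 at 0.26 (0.11 to 0.59), Zfpm1 at -0.17 (-0.52 to 0.08) and Nfe2 at -0.81 (-1.39 to -0.34).

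The Car1 groups also differed in RNA of other classes. Pf4, a platelet chemokine gene, stood at 1.49 to 8.54 CPM in the high group and 60.1 to 99.3 CPM in the low group, and Itga2b, an integrin gene of megakaryocytes, at 2.75 to 5.62 and 47.1 to 67.3 CPM. Spi1, which encodes the myeloid factor PU.1, stood at 8.94 to 12.2 CPM in the high group and 32.6 to 77.9 CPM in the low group, and the progenitor gene Cd34 at 0 to 12.4 and 43.5 to 114 CPM. The median UMI count per cell was 20824 to 26614 in the high group and 8282 to 13617 in the low group. The part of these in the ratios was not tested. The call of Klf1, with a ratio of 1.06 (1.04 to 2.01), was lost under several settings, with thinned cells among them, and that of Fli1 with 4 gate markers and with markers seen in at most 25% of cells.

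**Figure D5:**
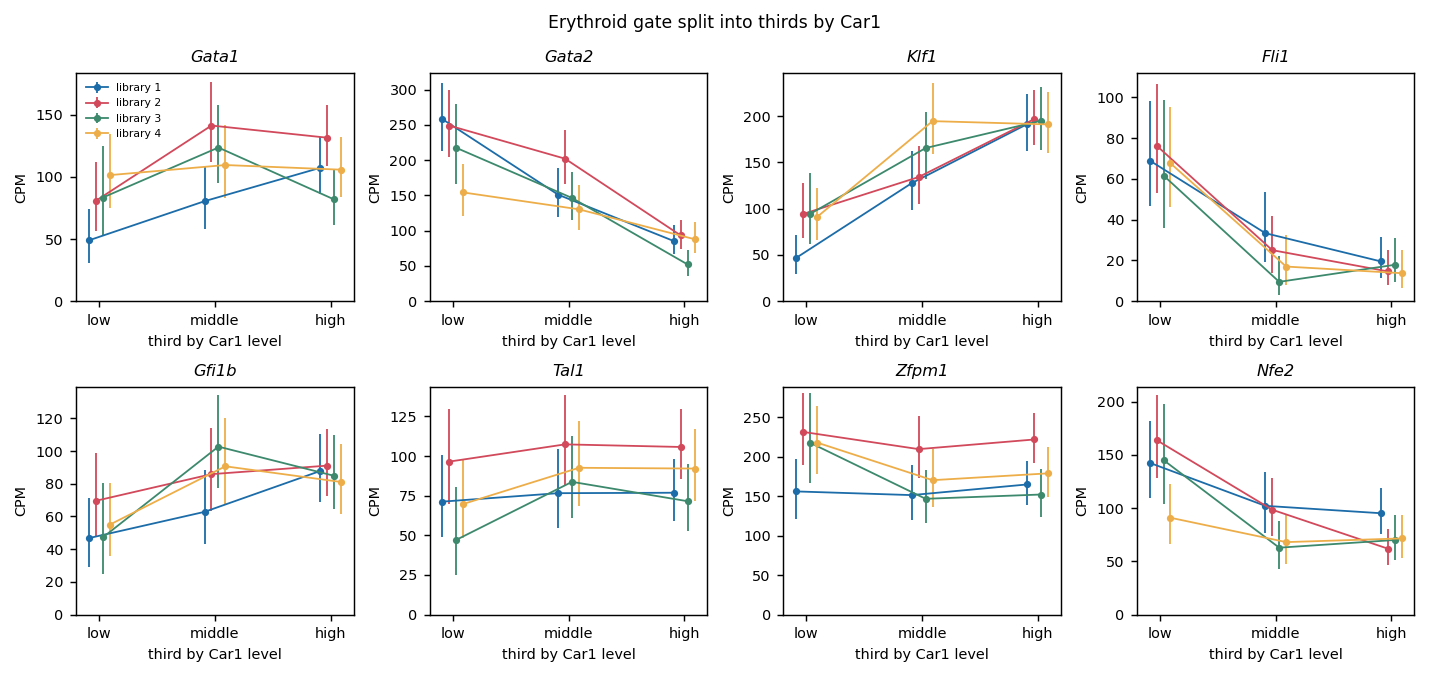
Level in CPM of 8 members in the low, middle and high Car1 groups of the erythroid gate, with exact 95% Poisson intervals and a line for each of the 4 libraries. Gata2 and Fli1 are highest in the low group, at 154 to 258 and 61.6 to 76.3, and Klf1 is highest in the high group in 3 of 4 libraries.

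Cycling cells, with a UMI of at least 3 of 12 G2 and M phase genes, were set against the other cells of the same gate. No member was called in the stem gate (background 4.23% higher and 1.59% lower), the megakaryocyte gate (2.66% and 0.0939%) or the erythroid gate (2.2% and 0.955%). In the stem gate Gata2 stood at 109, 109, 92.3 and 113 CPM in cycling cells and 158, 183, 149 and 167 CPM in the others, without overlap, and its ratio was -0.63 (-0.73 to -0.53). Gata3 at -0.63 (-0.72 to -0.39), Nfe2 at -0.53 (-0.59 to -0.34), Gfi1 at -0.49 (-0.54 to -0.30), Zfpm1 at -0.41 (-0.53 to -0.41), Fli1 at -0.37 (-0.45 to -0.22) and Tal1 at -0.35 (-0.41 to -0.22) were also lower in 4 of 4 libraries, while Spi1 stood at 0.18 (0.13 to 0.28). Gata1 had the other sign, with 5.14, 3.25, 2.93 and 5.55 CPM in cycling cells and 1.55, 1.56, 1.77 and 1.20 CPM in the others, a ratio of 1.00 (0.51 to 1.58) at a level too low for the filter. Other features moved with this division: Procr, a stem cell gene, stood at 61.7 to 67.6 CPM in cycling cells and 156 to 174 CPM in the others, Cd34 at 263 to 354 and 129 to 239 CPM, and Mpo, a neutrophil granule gene, at 40.6 to 61.6 and 10.2 to 17.2 CPM. The median UMIs per cell were 14166 to 15585 in cycling cells and 7176 to 8196 in the others. The part of these features in the ratios was not tested. In the megakaryocyte gate the ratio of Gata2 was -0.18 (-0.37 to -0.02) that of Gfi1b -0.43 (-0.59 to -0.22) and that of Gata1 0.19 (0.07 to 0.32). In the erythroid gate Gata2 had 89.4, 122, 96.7 and 88.7 CPM in cycling cells and 306, 365, 171 and 237 CPM in the others, a ratio of -1.49 (-1.76 to -0.82). Gata1 stood there at 0.40 (0.14 to 0.73), and Car1 was also higher in the cycling cells in 4 of 4 libraries.

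Vwf, a megakaryocyte gene that marks a platelet-biased group of stem cells, was used to divide the stem gate. No member was called between cells with and without a Vwf UMI (background 0.74% higher and 0.296% lower). Gata2 stood at 187, 222, 183 and 186 CPM in cells with Vwf and at 131, 139, 115 and 137 CPM in cells without it. Zfpm1 stood at 184, 216, 176 and 174.5 CPM with Vwf and 113, 136, 121 and 125 CPM without. For both genes all values with Vwf lay above all values without it, with ratios of 0.59 (0.44 to 0.67) for Gata2 and 0.60 (0.48 to 0.70) for Zfpm1. Gata3 at 0.42 (0.27 to 0.69), Gfi1b at 0.39 (0.21 to 0.63) and Fli1 at 0.31 (0.28 to 0.44) were higher in 4 of 4 libraries, and Spi1 stood at -0.59 (-0.65 to -0.35). Gata1 stood at 0.401 to 5.09 CPM with Vwf and 1.78 to 2.60 CPM without. Pf4 was higher with Vwf in no library, at 72.4, 41.7, 24.1 and 25.2 CPM with and 72.5, 49.98, 48.2 and 46.5 CPM without. Itga2b was higher with Vwf in library 4 only, at 14.9, 16.8, 21.6 and 28.97 CPM with and 20.9, 23.2, 21.6 and 19.9 CPM without. Both are megakaryocyte gate markers, and cells that also passed that gate are not in the stem gate. Mki67 stood at 85.6 to 318 CPM with Vwf and 213 to 513 CPM without, and Cd34 at 69.8 to 143 and 210 to 312 CPM, and their part in the ratios was not tested.

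Among the 19911 cells of no gate, a Gata1 UMI picked out cells with other members. Cells with a Gata1 UMI numbered 211, 127, 132 and 107, against 6450, 4980, 4404 and 3500 without. Of the other members, Klf1 (2.71, range 2.60 to 2.93), Gfi1b (1.66, 1.48 to 1.70), Gata2 (1.39, 1.28 to 1.47) and Zfpm1 (1.33, at least 1.27) were higher and Gfi1 (-2.06, -2.60 to -1.17) was lower, against 0.413% of 9684 genes higher and 0.661% lower, a background that includes Gata1. Gata2 stood at 196, 215, 182 and 182 CPM in cells with a Gata1 UMI and 71.7, 84.4, 65.1 and 74.3 CPM in cells without. Gfi1 stood at 3.75, 2.55, 2.01 and 7.50 CPM with and 15.8, 16.4, 17.2 and 18.1 CPM without. Tal1 at 0.53 (0.36 to 0.67) and Fli1 at 0.24 (0.16 to 0.38) were higher in 4 of 4 libraries, and Cebpa stood at -1.08 (-1.22 to -0.61). Pf4 stood at 65.8 to 148 CPM with a Gata1 UMI and 28.4 to 42.8 CPM without, and Itga2b at 65.0 to 84.0 and 18.0 to 20.1 CPM. Car1 stood at 9.55 to 49.6 CPM with and 1.42 to 2.62 CPM without, and Mpo at 18.3 to 37.5 and 77.0 to 97.1 CPM. The median UMI count per cell was 10442 to 12179 with and 8774.5 to 9081 without. The part of these features in the ratios was not tested. With a gate of 2 markers, which leaves fewer cells outside, Gata2 was called and no other member. With a minimum of 20 CPM Gfi1 and Klf1 were not called, and with a pseudocount of 5 CPM Gfi1 was not.

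Cells of no gate divided by Gfi1 or Gata3 differed less. With against without a Gfi1 UMI, Gata1 had 0.391 to 1.16 and 3.86 to 5.13 CPM, too low for the filter. Gfi1b had a ratio of -0.74 (-1.60 to -0.60) and Gata2 of -0.46 (-0.60 to -0.42), and neither was called. No member but Gfi1 was called (background 0.0103% higher, which is Gfi1 itself, and 0.0206% lower). With against without a Gata3 UMI, Gata2 had 0.25 (0.15 to 0.41) and Zfpm1 0.24 (0.11 to 0.41), and neither was called. No member but Gata3 was called (background 0.0513% higher, which includes Gata3 itself, and 0.0308% lower).

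Detection in single cells was compared after thinning each cell to 3000 UMIs. Shares and intervals are over the cells of the 4 libraries summed and cover counting error only, since cells are not replicates. Among cells of no gate with a Gata1 UMI, 40.8% of 201 also had Gata2 (95% interval 33.9 to 47.9%), against 20.0% of 19445 cells without Gata1 (19.4 to 20.5%). Zfpm1 was found in 46.3% (39.2 to 53.4%) against 21.1% (20.6 to 21.7%), and Klf1 in 3.98% (1.73 to 7.69%) against 0.324% (0.249 to 0.414%). In the megakaryocyte gate Zfpm1 was found in 64.4% of 340 cells with Gata1 (59.1 to 69.5%) and 53.4% of 2508 cells without (51.5 to 55.4%). By library these shares were 61.6, 71.2, 57.1 and 69.0% with Gata1 and 53.8, 53.8, 49.7 and 56.4% without. Gata2 was found there in 43.2% (37.9 to 48.7%) and 42.7% (40.7 to 44.6%). In the neutrophil progenitor gate 0 of 149 cells with Gfi1 had Gfi1b (0 to 2.45%), against 2.35% of 1449 cells without Gfi1 (1.63 to 3.26%), and these intervals overlap. In the erythroid gate Fli1 was found in 5.74% of 122 cells with Klf1 (2.34 to 11.5%) and 9.93% of 272 cells without Klf1 (6.64 to 14.1%), which is not a difference that this depth can show.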

How the data were processed

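The authors deposited whole-number UMI counts in 1 aggregated matrix of 32285 genes and 44151 barcodes, for which the file headers name Cell Ranger 6.1.2 and the build was mm10 per the submitters' processing notes. Droplet libraries used 3′ v3.1 chemistry, per the labels' protocols. Whether depth was evened out at aggregation is not given in the sources used here. Of the barcodes, 41122 passed a minimum of 500 genes and a mitochondrial share of up to 10%, and 3029 were removed; doublets were not called. Of 108 listed gate markers 8 that were seen in more than 50% of kept cells were dropped, after seeing the data. UMIs were summed per gate and library, divided by the gate total as CPM, and compared within each library as log2(CPM + 1), a scale that understates changes of low genes. Named genes were all members, up to 4 called genes per list and comparison, ranked by the library closest to 0, and the 3 genes most like each of 6 members; a few list genes that this rule names are not reported here. The members and lists were chosen with earlier results of these data known. The comparison of Srcap mutant with wild type was not run. Python 3.11.15, NumPy 2.4.6, SciPy 1.17.1 and pandas 2.3.3 were used, and the calling rule was run on simulated counts. These counts came from 1 pooled profile, with no difference between libraries beyond depth and counting error. They do not check the gates or the spread between libraries. The effect of 16 alternative settings is given at the end.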

Additional observations from a re-analysis of the deposited data

How the results depend on the processing

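Each count of members called was recomputed under 16 alternatives. Of 112 recomputed counts 94 stayed within 1.5 times the reported one. Of 384 recomputed ratios of called members 307 moved by no more than the SD between libraries, 77 by more, and 0 changed sign. Dropping the CPM filter, a minimum of 20 CPM and a 1.5-fold rule leave every ratio as it is, so those runs could not move. A pseudocount of 5 CPM or a left-out library cannot turn the sign of a called member. These runs therefore do not bear on the count of changed signs. With a gate of 2 markers, the counts were 4 against 2 for the Car1 groups, 1 against 5 for cells of no gate divided by Gata1, and 0 against 2 for lymphoid against neutrophil progenitor cells. With a gate of 4 markers, or with markers seen in at most 25% of cells (chosen after seeing the data), the count was 4 against 2 for basophil or mast against erythroid cells and 0 against 2 for the Car1 groups. Without the 8% of cells with the most UMIs, the counts for basophil or mast against erythroid cells and for lymphoid against neutrophil progenitor cells were 1 against 2, and lymphoid against neutrophil progenitor cells gave 1 also with a pseudocount of 5 CPM and with thinned cells. The Car1 groups gave 1 against 2 with at most 5% mitochondrial UMIs, with at least 1000 genes, with thinned cells and with cells of several gates assigned to the gate with the most markers. A minimum of 20 CPM gave 3 against 5 for cells divided by Gata1. A 1.5-fold rule gave 5 against 3 for megakaryocyte against stem cells and 4 against 2 for basophil or mast against erythroid cells. The cause of these moves was not tested, other than that a rule of 1.5-fold calls more genes and a higher minimum tests fewer. Over all genes, the number called ranged from 123 to 1229 for megakaryocyte against stem cells (409 as reported), 314 to 1373 for erythroid against megakaryocyte cells (690), 262 to 1059 for basophil or mast against erythroid cells (554), 445 to 1491 for erythroid against neutrophil progenitor cells (834), 141 to 1098 for lymphoid against neutrophil progenitor cells (503), 180 to 822 for the Car1 groups (404) and 43 to 306 for cells divided by Gata1 (104). Leaving out 1 library at a time gave 3 to 4, 3 to 4, 2 to 3, 7 to 8, 2, 2 to 3 and 5 members called, in the order of these comparisons. A call needs every library used, so leaving 1 out can add calls and can lose them only through the level filter. These runs count among the 16 alternatives. No paired analysis was possible because the barcode suffixes are not tied to samples or replicate numbers; for the same reason neither edgeR nor DESeq2 was run, with or without a replicate block or with a replicate left out. Small gates limit precision: 1 to 22 Gata1 UMIs per library stand behind the basophil or mast gate.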

Other observations

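Over all kept cells the members differed little between the 4 unlabelled libraries. The highest library stood over the lowest by 1.12 times for Nfe2 and by 1.32 times for Gata2, with the other members between them. Gata2 had 90.7, 109, 82.8 and 97.3 CPM in libraries 1 to 4, and Gata1 had 10.2, 10.0, 9.05 and 10.5 CPM. In the stem gate Gfi1 had 16.9, 17.3, 24.3 and 24.0 CPM, where the exact 95% Poisson intervals of libraries 1 and 2 reached up to 19.0 and 19.3 CPM and those of libraries 3 and 4 down to 22.0 CPM in both. The stem gate took 14.2%, 17.8%, 17.3% and 25.8% of the kept cells of libraries 1 to 4.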
